A study of Rattus norvegicus with 12 samples.

Results

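The small leucine-rich proteoglycans (SLRPs) are secreted proteins of the connective tissue matrix, built around a row of leucine-rich repeats. Their protein cores bind collagen fibrils and set the spacing and thickness of the fibrils, and several of them also bind growth factors such as TGF-β or act on innate immune receptors when they are released from the matrix. In the joint they are made by synovial fibroblasts and chondrocytes, and their fragments are released as cartilage and synovium are remodelled. The 7 genes examined here were decorin (Dcn), biglycan (Bgn) and asporin (Aspn) of class I, lumican (Lum), fibromodulin (Fmod) and prolargin (Prelp) of class II, and osteoglycin (Ogn) of class III. Each member was taken by its gene symbol in the deposited table, with the record of the highest mean FPKM (fragments per kilobase of transcript, scaled to the mapped fragments of the library) where several records carried 1 symbol. The members were 7 of 22442 gene records, and 9 records carried a member symbol. All 7 had a mean of at least 1 FPKM and so were among the 11611 records tested.

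Poly(A) RNA was sequenced from fibroblast-like synoviocytes (FLS) of male Sprague Dawley rats with adjuvant arthritis (AA), which had been induced in every donor animal with complete Freund's adjuvant. FLS are the lining and sublining fibroblasts of the synovium, grown here from tissue pieces to the third passage. Arthritic FLS kept in plain DMEM for 12 h formed the FCA group. The other groups were arthritic FLS given taurochenodeoxycholic acid (TCDCA), a taurine-conjugated bile acid, for the same time at 0.1 µM (AT01), 1 µM (AT1) or 10 µM (AT10). No FLS from healthy rats are among the groups compared, and each group held 3 libraries, 12 in all. The labels do not say whether the libraries of a group came from separate rats or cultures, so p-values measure only the spread between these libraries.

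The labelled cell type was checked against its markers. Of 15 fibroblast and synovial fibroblast markers, 13 had a record and all 13 reached a mean of 1 FPKM, led by S100a4 (mean 3376 FPKM) and Vim (2658 FPKM). The lubricin gene Prg4, a marker of the synovial lining, lay between 26.8 and 37.5 FPKM. Of 11 macrophage and leukocyte markers, Cd14 (mean 13.8 FPKM) and Cd68 (2.13 FPKM) reached 1 FPKM. Of 8 endothelial markers, Eng did (20.5 FPKM), and Cdh5 was at most 0.01 FPKM. Of 10 chondrocyte markers 3 reached it, led by Acan (4.31 FPKM) and Comp (1.70 FPKM), while Col2a1 was at most 0.01 FPKM. Of 7 adipocyte markers 5 reached it, led by Lpl (55.03 FPKM) and Fabp4 (33.1 FPKM). Of 8 genes listed as smooth muscle markers, 7 had a record and all 7 reached it, led by Cnn2 (371 FPKM) and Acta2 (245 FPKM). The sum of FPKM over all records of a library lay between 284210 and 309696.

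Dcn, Bgn and Lum were among the most abundant messages of these cells, and the other members were far lower. FPKM is scaled by transcript length, so levels can be set side by side between genes. Dcn had a mean of 1273 FPKM over the 12 libraries and was the record of rank 12 of 22442, Bgn had 806 FPKM (rank 34) and Lum had 716 FPKM (rank 40). Prelp followed with 48.7 FPKM, Fmod with 16.5 FPKM, Ogn with 5.65 FPKM and Aspn with 4.27 FPKM. The summed level of the members was 0.970% ± 0.061 of the FPKM of all records (SD, n = 12), and Dcn, Bgn and Lum together held 97.4% ± 0.645 of that sum. Neighbours in this order were apart in all 12 libraries with 2 exceptions. Bgn was above Lum in 10 of 12 libraries and Ogn was above Aspn in 10 of 12, and the ranges of both pairs overlapped.

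The ratio of Bgn to Lum differed between the groups. In FCA, Bgn was 1.37 to 1.46 times Lum in the 3 libraries. In AT1, Bgn was 1.06 to 1.13 times Lum. In AT10 the ratio ran from 0.950 to 1.17 and in AT01 from 0.794 to 1.18, so that 1 library of each of these groups held more Lum than Bgn.

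Lum and Dcn lie next to each other on chromosome 7 in the RefSeq annotation of the rat assembly GRCr8, followed by Kera and Epyc, which are SLRP genes too. In these cells the arrangement did not go with the level. Dcn and Lum were at 594.7 FPKM or more in every library, while Kera was at most 0.02 FPKM and Epyc at most 0.24 FPKM. On chromosome 13 Prelp stands between Optc and Fmod, and on chromosome 17 Ogn and Aspn stand on either side of Omd. Omd was at most 0.08 FPKM and the higher record of Optc at most 1.08 FPKM. The genome build of the deposited table is not given in the sources used here, and the neighbours are given by their order alone.

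RefSeq promoter sequences of GRCr8, from 250 bases before to 50 bases after the start of a gene, were at hand for 4 of the 7 members (Aspn, Lum, Fmod and Ogn). The 250 bases before the start are shown for Lum, whose TCDCA libraries all lay above the FCA libraries (values below), and for Fmod, a class II member whose groups overlapped. Lum is on the + strand at chr7:34245456-34245705 and Fmod on the + strand at chr13:48045317-48045566. Capitals mark matches to the motifs searched.
Lum: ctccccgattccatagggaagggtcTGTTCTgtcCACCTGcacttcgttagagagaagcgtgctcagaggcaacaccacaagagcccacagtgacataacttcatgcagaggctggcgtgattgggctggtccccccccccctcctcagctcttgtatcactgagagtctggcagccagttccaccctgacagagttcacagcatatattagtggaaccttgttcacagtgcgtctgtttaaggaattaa
Fmod: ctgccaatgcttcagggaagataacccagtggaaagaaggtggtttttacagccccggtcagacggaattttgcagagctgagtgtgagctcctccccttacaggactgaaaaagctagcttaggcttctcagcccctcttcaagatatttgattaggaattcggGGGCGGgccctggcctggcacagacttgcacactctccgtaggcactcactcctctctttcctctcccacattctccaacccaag
The motifs were the TATA box TATAAA, the GC box GGGCGG, the AP-1 site TGANTCA, the E-box CANNTG and the glucocorticoid receptor hexamer AGAACA, each on both strands and with overlaps allowed. In the 300-base windows, Lum held 1 E-box starting at position -216 from the start of the gene, and 1 receptor hexamer on the - strand (TGTTCT as printed) from position -225. Fmod held 1 GC box from position -85. Aspn held 1 E-box, and Ogn held 4 E-boxes and 2 overlapping TATA boxes, 1 on each strand. Of all 33469 promoters of this length, 72.1% held the E-box, 33.1% the GC box, 20.7% the receptor hexamer, 14.2% the TATA box and 7.33% the AP-1 site. A match is only a run of letters in the window and no evidence of binding.

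Decorin, the class I proteoglycan that carries a single glycosaminoglycan chain and binds type I collagen and TGF-β, was the most abundant member in every library. Its FCA libraries stood at 1144, 1071 and 1279.8 FPKM, for a mean of 1165 ± 106 FPKM (SD, n = 3). AT01 libraries stood at 1325, 1340.1 and 1324 FPKM (1329.5 ± 9.12), AT1 libraries at 1290.3, 1276 and 1373 FPKM (1313 ± 52.4) and AT10 libraries at 1205, 1294 and 1357 FPKM (1286 ± 76.3). Every AT01 library lay above every FCA library, while the highest FCA library lay within the range of AT1 and of AT10. The mean was 14.2% higher than in FCA in AT01, 12.7% higher in AT1 and 10.4% higher in AT10. Over the 9 TCDCA libraries the log2 fold change against FCA was 0.17 (SE 0.056, 95% interval 0.05 to 0.29), which did not pass after adjustment (limma, adjusted p = 0.319). The exact permutation test of the same difference gave p = 0.0136 over 220 arrangements, 7 of 9 TCDCA libraries being above all FCA libraries.

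Biglycan, the class I relative of decorin that usually carries a pair of chains and can signal through Toll-like receptors when soluble, had the opposite sign. FCA libraries stood at 869.9, 857 and 855 FPKM (861 ± 7.94), AT01 libraries at 819, 783 and 719 FPKM (774 ± 50.3), AT1 libraries at 794, 799 and 826 FPKM (806 ± 16.9) and AT10 libraries at 819, 829 and 701 FPKM (783 ± 71.3). All 9 TCDCA libraries lay below all 3 FCA libraries, as in 1.90% of all records tested. The FCA libraries were close together, and the lowest of the TCDCA libraries were AT10 replicate 3 and AT01 replicate 3. The log2 fold change of TCDCA against FCA was -0.13 (SE 0.057, 95% interval -0.26 to -0.0048), with a limma adjusted p = 0.401. The exact permutation test gave p = 0.0364. Biglycan had 2 further records in the table, 1 of them from 1.32 to 35.1 FPKM with its highest value in FCA replicate 1, and the other at most 0.49 FPKM.

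Lumican, the class II keratan sulfate proteoglycan that limits the width of collagen fibrils, showed the largest fold difference between TCDCA and FCA among the 3 abundant members. FCA libraries stood at 595, 603 and 625 FPKM (608 ± 15.6). AT01 libraries stood at 695, 736 and 906 FPKM (779 ± 112), AT1 libraries at 702, 722 and 782 FPKM (735 ± 41.8) and AT10 libraries at 699.7, 784 and 737 FPKM (740.2 ± 42.1). All 9 TCDCA libraries lay above all 3 FCA libraries, as in 0.956% of all records tested, and the 3 dose groups overlapped each other. The mean was 28.2% higher than in FCA in AT01, 21.0% higher in AT1 and 21.8% higher in AT10.

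In the limma fits, the log2 fold change of Lum against FCA was 0.35 (SE 0.11) in AT01, 0.27 (SE 0.061) in AT1 and 0.28 (SE 0.062) in AT10. None passed after adjustment over all records (adjusted p of 0.72, 0.381 and 0.191 in that order). For the 9 TCDCA libraries together it was 0.30 (SE 0.074, 95% interval 0.14 to 0.46), with an unadjusted p of 0.00158, rank 71 of 11611 by p, and a limma adjusted p of 0.257. The exact permutation test gave p = 0.00455, the smallest that 9 libraries against 3 allow. For each dose alone the exact permutation test gave p = 0.1, the smallest that 3 against 3 allow. The 3 comparisons use the same FCA libraries and are not independent of one another.

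**Figure D1:**
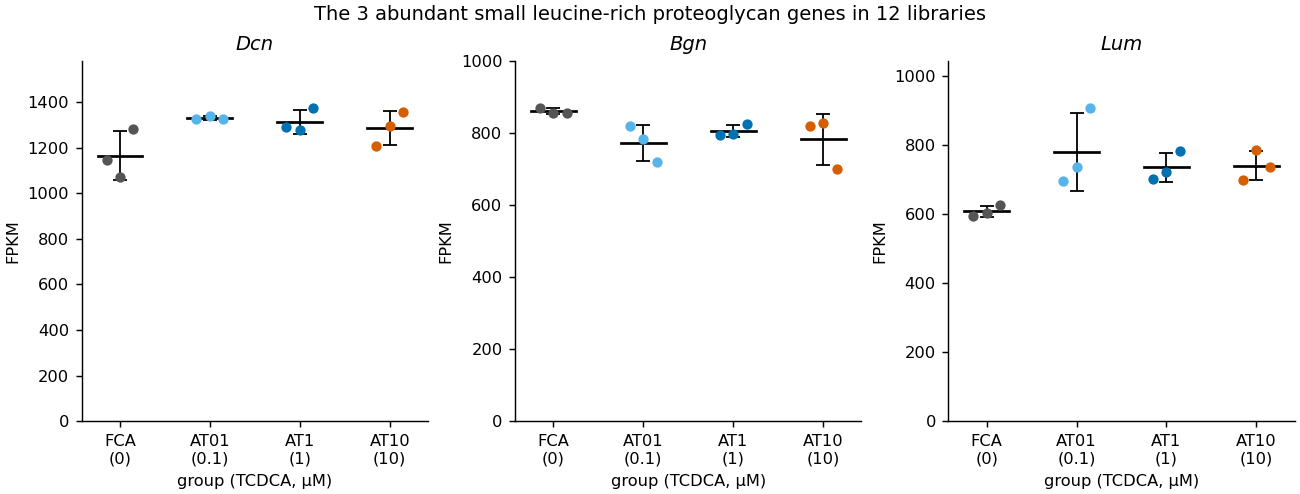
FPKM of Dcn, Bgn and Lum in each of the 12 libraries (points), by group and TCDCA concentration in µM, with the mean (wide bar) and SD (error bar) of 3 libraries. The FCA points of Lum (595 to 625 FPKM) lie under all TCDCA points, the FCA points of Bgn (855 to 869.9 FPKM) lie over all of them, and those of Dcn overlap the TCDCA points.

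The 3 abundant members can also be compared inside each library, where any scaling common to a library cancels. The log2 ratio of Lum over Bgn was -0.50 ± 0.048 in FCA (SD, n = 3), 0.00 ± 0.30 in AT01, -0.13 ± 0.051 in AT1 and -0.08 ± 0.15 in AT10. It ran from -0.55 to -0.45 in FCA and from -0.24 to 0.33 in the TCDCA libraries. The lack of overlap was fixed by the levels, since every TCDCA library lay above FCA for Lum and below FCA for Bgn. The log2 ratio of Dcn over Bgn was 0.43 ± 0.13 in FCA and 0.73 ± 0.12 over the TCDCA libraries (SD, n = 9), and AT10 replicate 1 (0.56) lay under FCA replicate 3 (0.58). The log2 ratio of Lum over Dcn was -0.93 ± 0.10 in FCA and -0.80 ± 0.11 in TCDCA, and its ranges overlapped. As a share of the summed FPKM of the 7 members, Lum held 22.5% ± 0.603 in FCA and 25.7% ± 1.75 in TCDCA, Bgn 31.9% ± 1.44 and 27.0% ± 1.79, and Dcn 43.0% ± 2.08 and 44.8% ± 1.38. These ratios were formed after the levels had been seen and are given as a description.

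**Figure D2:**
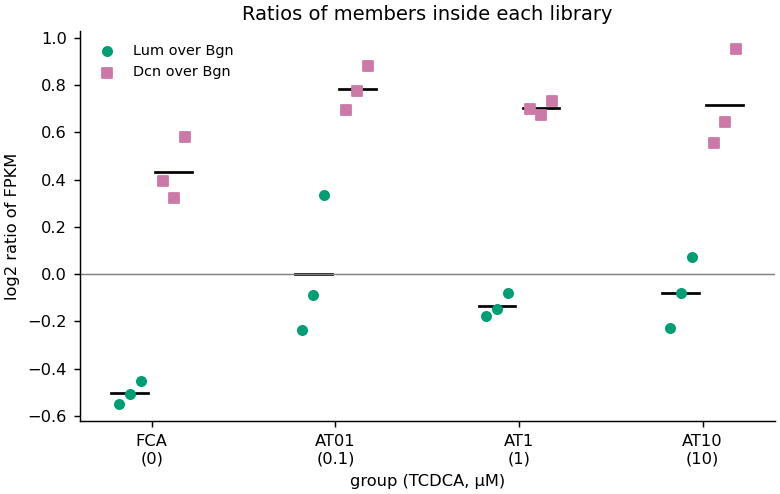
Log2 ratio of FPKM of Lum over Bgn (circles) and of Dcn over Bgn (squares) in each library, by group and TCDCA concentration in µM, with the mean of 3 libraries as a bar. The Lum over Bgn ratio of the FCA libraries (-0.55 to -0.45) lies under that of every TCDCA library, which follows from the levels of Lum and Bgn. The Dcn over Bgn ratio overlaps between FCA and AT10.

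Prolargin, a class II member that anchors basement membranes to connective tissue, was even in FCA and uneven with TCDCA. FCA libraries stood at 47.1, 45.05 and 45.9 FPKM (46.0 ± 1.04) and AT10 libraries at 44.2, 37.9 and 36.85 FPKM (39.6 ± 3.98), all under FCA. AT01 libraries stood at 44.9, 37.0 and 58.1 FPKM (46.6 ± 10.7) and AT1 libraries at 104, 37.8 and 45.7 FPKM (62.65 ± 36.4). AT1 replicate 1 stood apart at the top, and the other 11 lay between 36.85 and 58.1 FPKM. For AT10 against FCA the log2 fold change was -0.22 (SE 0.083, limma adjusted p = 0.408, exact permutation p = 0.1). For AT1 against FCA it was 0.29 (SE 0.38), and -0.14 without AT1 replicate 1, so that the sign rested on that library. For TCDCA against FCA it was 0.02 with all libraries and -0.12 without AT1 replicate 1.

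Fibromodulin, a class II member that binds type I collagen and takes part in its cross-linking, overlapped between all groups. FCA libraries stood at 16.3, 19.3 and 13.8 FPKM (16.5 ± 2.73), AT01 libraries at 17.4, 18.45 and 17.1 FPKM (17.7 ± 0.699), AT1 libraries at 16.5, 17.6 and 14.8 FPKM (16.3 ± 1.42) and AT10 libraries at 15.3, 18.7 and 12.9 FPKM (15.6 ± 2.93). The FCA libraries alone spanned most of this range. The log2 fold change of TCDCA against FCA was 0.01 (95% interval -0.24 to 0.26).

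Osteoglycin, the class III member, was low in every library. FCA libraries stood at 6.11, 3.93 and 5.21 FPKM (5.08 ± 1.10), AT01 libraries at 3.78, 6.64 and 7.78 FPKM (6.07 ± 2.06), AT1 libraries at 5.94, 5.58 and 5.81 FPKM (5.78 ± 0.182) and AT10 libraries at 5.39, 5.40 and 6.26 FPKM (5.68 ± 0.499). The lowest and the highest value both belonged to AT01, and all groups overlapped. The log2 fold change of TCDCA against FCA was 0.17 (95% interval -0.17 to 0.50). It was 0.025 without FCA replicate 2 and 0.29 without FCA replicate 1, so that its size rested on single FCA libraries.

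Asporin, the class I member with a run of aspartate residues that binds TGF-β, was the lowest of the 7. FCA libraries stood at 4.15, 3.97 and 4.84 FPKM (4.32 ± 0.459), AT01 libraries at 1.82, 3.68 and 5.28 FPKM (3.59 ± 1.73), AT1 libraries at 4.76, 2.21 and 5.48 FPKM (4.15 ± 1.72) and AT10 libraries at 5.46, 4.73 and 4.87 FPKM (5.02 ± 0.387). AT01 replicate 1 and AT1 replicate 2 were the low libraries, and all groups overlapped with FCA. The log2 fold change of TCDCA against FCA was -0.07 (95% interval -0.62 to 0.48). A record named Aspnl1, which RefSeq gives as a synonym of Aspn, held 0.82 to 3.92 FPKM and was also lowest in AT01 replicate 1. Reads of Aspn may be split between these records.

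**Figure D3:**
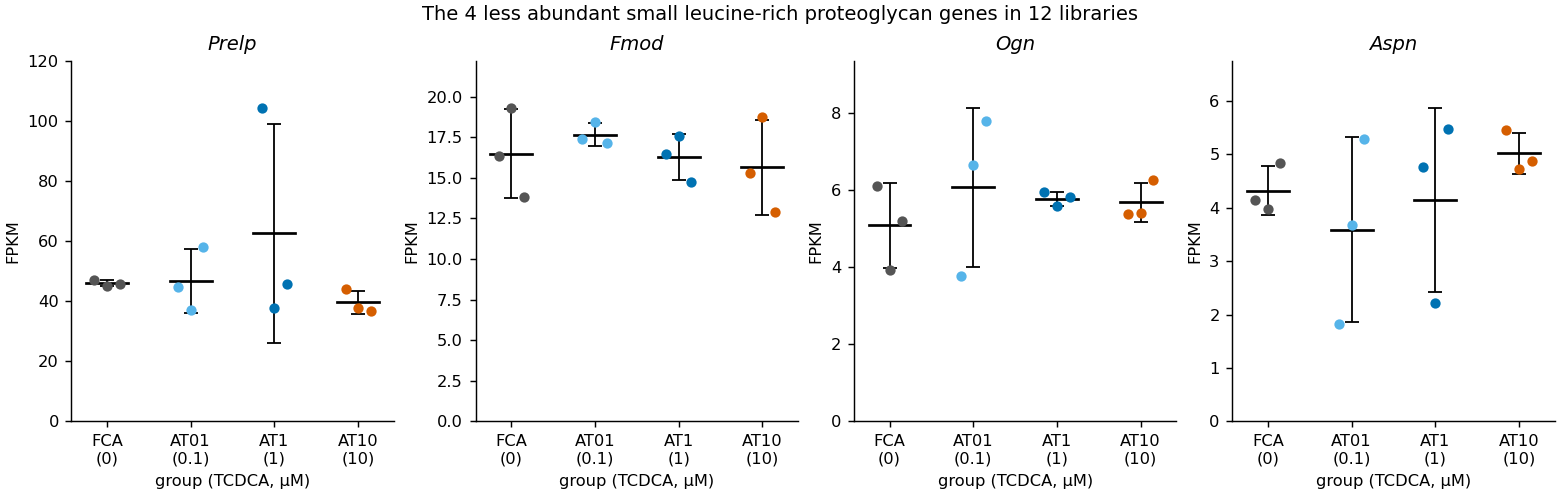
FPKM of Prelp, Fmod, Ogn and Aspn in each of the 12 libraries (points), by group and TCDCA concentration in µM, with the mean (wide bar) and SD (error bar) of 3 libraries. AT1 replicate 1 of Prelp (104 FPKM) stands over the other 11 libraries, and the FCA points of Fmod, Ogn and Aspn overlap the points of each TCDCA group.

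No member passed an adjusted p under 0.05 in the limma fit of any comparison. Against FCA, the share of all records that passed was 0.172% for AT10, 0.0947% for AT1, 0.0947% for AT01 and 0.0258% for TCDCA. Between doses it was 0.258% for AT10 against AT1, 0.0689% for AT10 against AT01 and 0.129% for AT1 against AT01. At an unadjusted p under 0.05 there were 2 members in AT10 (Lum higher and Prelp lower), 1 in AT1 and 1 in AT01 (Lum, higher in both), 3 in TCDCA (Lum and Dcn higher and Bgn lower) and 0 between doses. Of all records, 7.54% were higher and 4.34% lower under that p in AT10, 5.56% and 5.44% in AT1, 2.57% and 4.03% in AT01 and 5.86% and 6.15% in TCDCA, and, between doses, 6.46% for AT10 and AT1, 4.97% for AT10 and AT01 and 3.43% for AT1 and AT01. An F test in the manner of the Ballgown package called 0 members after adjustment as well. Unadjusted, it held 1 member (Lum) in AT10 against FCA, 0 in AT1, 0 in AT01 and 2 (Lum and Dcn) in TCDCA, beside 10.6%, 6.84%, 5.72% and 8.78% of all records. The study's own cutoff, an absolute log2 fold change above 1 joined to an unadjusted p below 0.05, was used there with Ballgown. Here and below it was applied to the limma fits, except where the manner of Ballgown is named. It was met by 0 of 7 members. Of all records, 0.706% met it in AT10, 0.620% in AT1, 0.758% in AT01 and 0.491% in TCDCA.

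Counting libraries in place of p-values, 1 member (Lum) had every AT10 library above every FCA library and 2 members (Bgn and Prelp) had every one below, beside 10.7% and 9.18% of all records tested. In AT1 the counts were 1 above (Lum) and 1 below (Bgn), beside 9.87% and 10.0%. In AT01 they were 2 above (Dcn and Lum) and 1 below (Bgn), beside 5.97% and 8.06%. With the 9 TCDCA libraries as 1 group they were 1 above (Lum) and 1 below (Bgn), beside 0.956% and 1.90%.

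**Figure D4:**
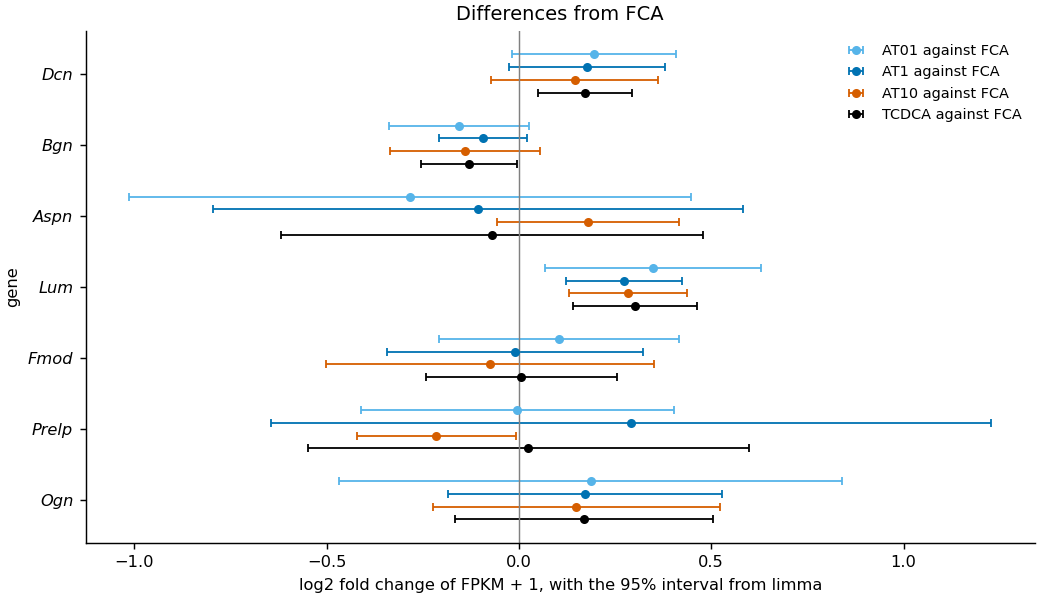
Log2 fold change of FPKM + 1 against FCA (points) with its 95% interval from limma (bars) for each member, for AT01, AT1, AT10 and the 9 TCDCA libraries together. The intervals of Lum lie above 0 in all 4 comparisons (0.14 to 0.46 for TCDCA), and those of Aspn, Fmod and Ogn include 0 in all 4.

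No member passed an adjusted p in a comparison between doses. The groups of AT10, AT1 and AT01 overlapped for all 7 members in all 3 comparisons between doses, and the lowest limma adjusted p was 0.796 (Prelp, AT10 against AT1). For Lum the log2 fold changes between doses lay between -0.08 and 0.01, with 95% intervals reaching from -0.37 to 0.23. For Dcn they lay between -0.05 and -0.02 (intervals from -0.24 to 0.14) and for Bgn between -0.05 and 0.06 (intervals from -0.25 to 0.26). Intervals of this width do not show that the doses acted alike. In the manner of Ballgown, Bgn had an unadjusted p of 0.0216 in AT10 against AT1 (log2 fold change -0.12, adjusted p = 0.504 by the same F test over all records), where 8.61% of all records had one under 0.05. In AT10 against AT01 and AT1 against AT01 there were 0 members, beside 5.09% and 5.49%. Over the 4 groups together, the groups held 66.1% of the variance of Lum (exact permutation p = 0.0222 over 15400 groupings), 55.9% of that of Dcn (p = 0.0558, same exact test) and 43.9% of that of Bgn (p = 0.166, same exact test). For the other 4 they held 10.1% to 21.6%, with p from 0.577 to 0.839 in the same exact test. This p is the share of all groupings that hold at least as much of the variance. In the limma F test over the 4 groups Lum had an adjusted p of 0.527, 0 members passed and 1 had an unadjusted p under 0.05, while 0.0431% of all records passed and 8.57% had an unadjusted p under 0.05.

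Across the 12 libraries, Pearson correlations of log2(FPKM + 1) between the members ran from -0.70 to 0.71 over 21 pairs, with a median of 0.01. The highest was that of Dcn with Lum (0.71), and the lowest were those of Bgn with Lum (-0.70) and with Dcn (-0.59). All libraries enter, so these values hold the group differences described above. The named record most like each member was Bod1l1 for Dcn (r = 0.97), Por for Bgn (0.96), Abhd5 for Lum (0.95), Yipf4 for Aspn (0.95), Vwa1 for Fmod (0.91), Senp2 for Ogn (0.89) and Sdhaf1 for Prelp (0.89, with a Spearman rho of 0.48). Each is the highest of all named records tested, over 12 points. Sdhaf1 ranged from 0 to 27.3 FPKM with a mean of 2.27 FPKM, so its r rested on its highest library. No member had its libraries at 2 separate levels, a pattern that 4.52% of the records tested showed.

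Of the 11 other SLRP genes, all had a record, 3 were tested and 8 stayed under a mean of 1 FPKM. Tsku (tsukushi) stood at 14.2 to 19.4 FPKM in 11 libraries and at 1.52 FPKM in AT1 replicate 1, the library in which Prelp was highest. Podn (podocan) stood at 11.8 to 16.9 FPKM and Podnl1 at 1.28 to 2.30 FPKM. None passed the adjusted p in any comparison, and all 3 had negative log2 fold changes in TCDCA against FCA (Tsku -0.43, Podn -0.09, Podnl1 -0.12). Their median there was -0.12, beside 0.00 over all records, and 0 of the 3 had an unadjusted p under 0.05 in that comparison. The value of Tsku rested on AT1 replicate 1, without which it was -0.12.

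The genes that build the sugar chains of SLRPs, supply their precursors, cut the core proteins or are bound by them were taken as lists. With the other SLRPs these lists held 92 genes, of which 63 were tested, and 0 passed an adjusted p under 0.05 in any comparison (limma). In TCDCA against FCA, 1 of the 63 was higher and 5 were lower at an unadjusted p under 0.05, beside 5.86% and 6.15% of all records. Of 23 genes for the linker and for chondroitin and dermatan sulfate, 17 were tested, with a median log2 fold change of -0.04 in TCDCA against FCA beside 0.00 over all records. The most abundant were B3gat3, which adds the last sugar of the linker (log2 fold change -0.14), and Chst11, a chondroitin 4-sulfotransferase (0.21). Pxylp1, a phosphatase that removes the phosphate from the linker's xylose, met the cutoff of the study in AT10 against FCA. It stood at 2.48, 8.29 and 8.78 FPKM in FCA, at 2.01, 2.37 and 1.29 FPKM in AT10, at 7.42, 3.98 and 7.61 FPKM in AT1 and at 1.87, 7.63 and 2.13 FPKM in AT01. All AT10 libraries were low, and so were 1 FCA and 2 AT01 libraries. Its log2 fold change was -1.26 against FCA (SE 0.43, limma adjusted p = 0.37) and -1.32 against AT1 (SE 0.26, adjusted p = 0.418).

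Of 9 keratan sulfate genes, 6 were tested, with a median of -0.02 in TCDCA against FCA, and the most abundant were Chst2 (log2 fold change -0.11) and St3gal1 (0.11). All 9 genes for the sulfate donor and UDP-sugars were tested, with a median of -0.06, led by Ugdh, the UDP-glucose dehydrogenase (0.18), and Uxs1 (0.03). Of 10 proteases, 9 were tested, with a median of 0.00, led by the matrix metalloproteinases Mmp2 (0.00) and Mmp3 (0.12). Mmp2 stood at 1557 FPKM on average, above Dcn.

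The fibrillar collagens that SLRPs bind had the lowest median of these lists in TCDCA against FCA. Of 9 genes 6 were tested, all 6 had negative log2 fold changes and the median was -0.21, beside 0.00 over all records. Of the 6, 2 were under an unadjusted p of 0.05, where 6.15% of all records were lower, and 0 under an adjusted p. The 2 were Col5a1 (log2 fold change -0.34) and Col5a3 (-0.38), and not the abundant Col1a1 and Col3a1. Col1a1 stood at 963 ± 94.7 FPKM in FCA and 807 ± 119 FPKM in TCDCA (log2 fold change -0.26, limma adjusted p = 0.456). Col3a1 stood at 918 ± 69.0 and 832 ± 83.3 FPKM (-0.15, limma adjusted p = 0.542, and -0.085 without FCA replicate 2). The sign was that of Bgn and not that of Lum and Dcn. Of 21 growth factor and receptor genes 13 were tested, with a median of -0.07, led by Ctgf (-0.50, SE 0.50) and Lrp1 (0.01). Without AT10 replicate 3 the value of Ctgf was -0.27, and without AT10 replicate 1 it was -0.33. By dose, Ctgf was -1.36 (SE 0.61) in AT10, 0.02 in AT1 and -0.15 in AT01 against FCA. Tgfb3, a ligand bound by decorin and biglycan, met the cutoff of the study in AT1 against AT01 with a log2 fold change of 1.03 (SE 0.28, limma adjusted p = 1). It stood at 59.7, 43.8 and 52.7 FPKM in AT1 and at 38.3, 20.3 and 19.6 FPKM in AT01, without overlap. FCA stood at 49.8, 55.3 and 43.2 FPKM. AT10 stood at 47.0, 58.0 and 28.6 FPKM, the last within the range of AT01. In AT1 against AT01, 66 of 11611 records met the cutoff.

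Among the summed marker levels, only that of smooth muscle lay apart from FCA in every TCDCA library. The sums of the other lists overlapped FCA in at least 1 TCDCA group. The 7 smooth muscle markers with a record summed to 695 to 851.5 FPKM in FCA, 599 to 694 FPKM in AT01, 564.5 to 652 FPKM in AT1 and 489 to 669 FPKM in AT10. Every TCDCA library lay under every FCA library, narrowly for AT01. Most of this sum was Cnn2 and Acta2, and whether Cnn2 marked smooth muscle in these cultures was not tested. The median log2 fold change of the 7 in TCDCA against FCA was -0.02, with 2 of 7 higher (Cnn1 0.02, Des 0.05) and 5 lower, 1 of them (Acta2) at an unadjusted p under 0.05. Acta2, the smooth muscle actin of myofibroblasts, stood at 317 ± 53.5 FPKM in FCA and 220.5 ± 41.8 FPKM in TCDCA (log2 fold change -0.54, limma adjusted p = 0.347). The 13 fibroblast markers summed to 8396 to 9141 FPKM in FCA, 8099 to 8931 FPKM in AT01, 8024 to 8824 FPKM in AT1 and 7105 to 8123 FPKM in AT10, where all libraries lay under FCA. Most of this sum was S100a4 and Vim. In AT10 against FCA the median log2 fold change of the 13 was -0.20 and 0 passed after adjustment. At an unadjusted p under 0.05, 3 were higher (Cd55 0.52, Vcam1 0.43, Fap 0.28) and 1 was lower (Thy1 -0.27), beside 7.54% and 4.34% of all records. The 6 macrophage and leukocyte markers with a record summed to 6.74 to 22.1 FPKM in FCA and 5.75 to 21.5 FPKM over the TCDCA groups, and the 10 chondrocyte markers to 9.04 to 10.99 FPKM and 5.54 to 9.90 FPKM. The 7 endothelial markers with a record summed to 21.8 to 24.6 FPKM in FCA and 16.7 to 21.9 FPKM in the TCDCA groups, and the 7 adipocyte markers to 89.2 to 106 FPKM and 87.1 to 115 FPKM. The part of these cell type markers in the differences of Lum, Bgn and Dcn was not tested. In RNA from a whole culture, fewer cells of a type and less RNA per cell cannot be told apart.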

How the data were processed

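The 12 libraries of FLS RNA fell into 4 groups of 3 by their sample labels. The authors deposited 1 table of FPKM values (22442 gene records, 2 decimals). Per the paper's methods, reads were aligned with HISAT2 and assembled and quantified with StringTie and Ballgown. The submitters' notes also name cutadapt. The labels and the methods name different sequencers, and the genome build and the strand setting of the counting are not given in the sources used here. No read counts per gene were used, so the number of reads behind a value is unknown and no counting interval is given. The paper lists the reads of each library. They were uneven, with the most in AT01 replicate 3, and their part in the differences was not tested. Without a stated strand setting, reads of overlapping genes cannot be told apart.

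Records were tested where their mean reached 1 FPKM (11611 records). Values entered limma 3.58.1 in R 4.3.3 as log2(FPKM + 1), with a variance trend, each fit holding the groups compared alone. The 9 libraries of all doses were also set against FCA as 1 group (TCDCA). P-values were adjusted by the Benjamini-Hochberg method over all records tested. Fold changes are on the log2(FPKM + 1) scale, which understates those of low genes. The difference of means of each member was also tested by exact permutation (two-sided, unadjusted), which cannot go below 0.1 with 3 libraries on each side or below 0.00455 with 9 and 3. The scripts were tested on simulated data. Python 3.11.15 (NumPy 2.4.6, SciPy 1.17.1, pandas 2.3.3) and Matplotlib 3.10.9 were used for descriptions and figures.

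The members and the gene lists were chosen with earlier results of these data known. Genes named are the members, the other SLRPs tested, the 2 most abundant genes of each list, those past an adjusted p of 0.05 or the study's cutoff, and the named record of highest correlation with each member. Prg4, Vim, Cdh5, Col2a1 and the untested SLRPs are named beside this rule, as checks of the cell type or for their place in the genome. Cd55, Vcam1, Fap, Thy1, Cnn1, Des, Col5a1 and Col5a3 were named after their values were seen.

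The alternatives were summing FPKM over records of 1 gene name, scaling by median of ratios, leaving out each library, a block for the replicate number, a Ballgown-like F test, a joint fit of all 12 libraries, a filter at 10 FPKM or none, and adding 0.1 in place of 1 before the log. Chosen after seeing the data were the count of members without overlap under scaling and under summed names, the sum of the records Aspn and Aspnl1, and leaving out each library for 7 further named genes.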

Additional observations from a re-analysis of the deposited data

How the results depend on the processing

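The 28 log2 fold changes of the members against FCA were recomputed 430 times in all under the alternatives. In 404 of these the direction and the side of the adjusted p threshold stayed, in 26 the sign turned and in 0 an adjusted p came under 0.05. Lum, Dcn and Bgn kept their direction in 62 of 62 recomputations each. In TCDCA against FCA, Lum ranged from 0.27 to 0.33 (lowest adjusted p 0.151, without AT01 replicate 1), Dcn from 0.11 to 0.24 and Bgn from -0.14 to -0.11. The count of members without overlap between TCDCA and FCA was 2 under median-of-ratios scaling and under summed names as well. With Aspn and Aspnl1 summed, the log2 fold change of Aspn was 0.22 in AT10, -0.11 in AT1, -0.36 in AT01 and -0.09 in TCDCA.

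The signs that turned were those of Fmod, Aspn and Prelp, whose differences were near 0 or rested on 1 library, and the cause was not tested. Under the F test in the manner of Ballgown they were 0.028 for Fmod in AT10 and 0.15 in AT1, 0.041 for Aspn in AT1 and 0.013 in TCDCA, and 0.072 for Prelp in AT01. With 1 library left out, Fmod ranged from -0.21 to 0.047 in AT10, -0.12 to 0.10 in AT1, -0.0085 to 0.22 in AT01 and -0.11 to 0.12 in TCDCA. Prelp ranged from -0.14 to 0.58 in AT1, -0.17 to 0.15 in AT01 and -0.12 to 0.066 in TCDCA. Aspn ranged from -0.30 to 0.20 in AT1, -0.55 to 0.031 in AT01 and -0.12 to 0.035 in TCDCA.

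The counts of all records called moved between the alternatives, while those of the members were 0 under every alternative run. With so few of all records called, 0 of 7 members is what that share would give. The 0 is therefore no sign that the members were stable. Adjusted calls numbered 20, 11 and 11 in AT10, AT1 and AT01 against FCA, 30 and 8 in AT10 against AT1 and against AT01, 15 in AT1 against AT01, and 3 in TCDCA against FCA. In that order they were 2, 3, 5, 3, 0, 2 and 5 in 1 fit over all 12 libraries and 1, 2, 1, 2, 1, 2 and 1 in the manner of Ballgown. With a mean of at least 10 FPKM they were 7, 6 and 7 against FCA, 5 in AT10 against AT01, 7 in AT1 against AT01 and 1 in TCDCA, and with a pseudocount of 0.1 there was 1 in TCDCA. With 1 library left out they ranged from 19 to 35, 9 to 33, 13 to 30, 26 to 50, 12 to 24, 11 to 25 and 2 to 22, and from 8 to 21 in the F test over 4 groups (5 with all libraries). Calls by the cutoff of the study (82, 72, 88 and 57 in AT10, AT1, AT01 and TCDCA) were 147 in AT10 and 89 in TCDCA with a pseudocount of 0.1, 19, 34, 40 and 18 with a mean of at least 10 FPKM, and 47, 112 and 40 in AT10, AT1 and AT01 in the manner of Ballgown.

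The correlations of deviations showed no pairing of the libraries by replicate number, and they cannot exclude one for single genes. They ran from -0.11 to 0.09 over 18 pairs of the same number, and 4 of 12 libraries were closest to one of their own number. Fmod stood highest in replicate 2 and lowest in replicate 3 of every group. Its SE in AT10 against FCA was 0.17, and 0.063 with the replicate number as a block. With the replicate number as a block, adjusted calls were 1, 0, 2, 1, 0, 2 and 1 in the order above, and 0 members passed. Without read counts per gene, what depth limits was not tested.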
